A study of Mus musculus with 16 samples.

Results

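Slco2b1, Ky, Frmd5, Wipf3, Jup, Jcad, Cyp11a1, Lrrn4, Arl5a and Epcam are 10 genes, of 19540 in the deposited table, that were picked because their values were much higher in regulatory T cells (Treg) than in conventional T cells (Tconv) of mouse visceral adipose tissue (VAT). Best known from epithelium, endothelium, muscle, steroid-producing glands, testis or brain, most of them are not textbook T cell genes. They were chosen by their Treg and Tconv values in these libraries, so the gap between the cell types is given below as a description with no test. What the choice did not use, and what is tested, is the effect of deleting Hpgd, the spread among Treg libraries and the genes related to each of the 10. The 10 genes and the lists of related genes were nonetheless drawn up with earlier results of these data known, so these tests are not free of a prior look.

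The mice carried a floxed Hpgd allele with Foxp3-YFP-Cre, a Cre recombinase driven in Foxp3-expressing cells, were 12 weeks old and were of strain C57BL/6JRcc. Hpgd encodes the dehydrogenase that inactivates prostaglandin E2, so the study asked what its loss does to fat Treg and to the Tconv beside them. The label for the mouse line was the same in all 16 libraries, so the genotypes, called KO and WT here, rest on the sample titles. Groups held 4 Treg KO, 3 Treg WT, 5 Tconv KO and 4 Tconv WT libraries, and which animal gave which library is not in the labels. All p-values below thus reflect the spread between libraries, which may be technical.

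Values are the authors' normalised read counts, on a scale where 1 stands for no reads. Libraries held 3.39 M to 9.26 M reads, apart from Tconv KO 3 with 56.7 M, and 3 reads corresponded to values of 1.38 to 7.09 depending on the library. The targeted gene Hpgd read 3.41, 2.54, 2.42 and 1.00 in Treg KO, against 73.1, 56.0 and 4.31 in Treg WT, so the library labelled Treg WT 3 held only 3 Hpgd reads. Treg identity held in both genotypes: 8 of 8 Treg markers, Foxp3 among them, were higher in Treg than in Tconv by limma (adjusted p under 0.05). The percentages of all tested genes called higher in that comparison were 4.16 in KO and 2.2 in WT. Foxp3 had reads in 4 Tconv libraries, at 1.89 and 4.99 in Tconv KO and at 20.6 and 39.3 in Tconv WT. Treg WT 2 stood apart from the other Treg libraries, with 2154 for Il2ra and 3200 for Il10, against 5257 and 5643 for Il2ra and 16794 and 20723 for Il10 in the other Treg WT libraries. Among Tconv WT libraries, the first carried neutrophil transcripts (S100a8 at 10195) and the third globin transcripts. Values without Treg WT 2, Treg WT 3 or these Tconv WT libraries are given beside several of the results they touch.

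Treg in visceral fat are a specialised population that restrains inflammation around adipocytes. They are known for the nuclear receptor PPARG, for lipid uptake and for the IL-33 receptor. The 10 genes fall by their known roles into transport and steroid synthesis (Slco2b1, Cyp11a1), junctions and adhesion (Jup, Jcad, Frmd5, Epcam), cytoskeleton and muscle (Wipf3, Ky), and Golgi traffic or neuronal membrane proteins (Arl5a, Lrrn4). Transporters of the Slco family carry organic anions such as steroid conjugates across the plasma membrane, and Cyp11a1 converts cholesterol to pregnenolone in mitochondria. Junction proteins such as plakoglobin, the product of Jup, link cadherins to the cytoskeleton in epithelia, heart and endothelium.

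Promoter sequence is shown for 3 genes: Slco2b1 and Jup, which were nearly silent in Tconv and varied most closely together in rank among Treg libraries, and Epcam, which behaved unlike the rest. RefSeq windows on GRCm38.p6 (the same assembly as mm10) were found for 9 of the 10 genes. The 250 bases upstream of each start are given 5′ to 3′ on the gene's strand, from chr7:99711341-99711590 for Slco2b1 (minus strand), chr11:100397791-100398040 for Jup (minus strand) and chr17:87635729-87635978 for Epcam (plus strand). Capitals mark letters that matched a searched motif.
Slco2b1: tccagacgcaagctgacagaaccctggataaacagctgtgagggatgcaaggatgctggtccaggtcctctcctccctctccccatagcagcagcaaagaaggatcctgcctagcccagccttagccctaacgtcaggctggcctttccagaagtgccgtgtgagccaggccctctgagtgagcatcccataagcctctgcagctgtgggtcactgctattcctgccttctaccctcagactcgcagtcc
Jup: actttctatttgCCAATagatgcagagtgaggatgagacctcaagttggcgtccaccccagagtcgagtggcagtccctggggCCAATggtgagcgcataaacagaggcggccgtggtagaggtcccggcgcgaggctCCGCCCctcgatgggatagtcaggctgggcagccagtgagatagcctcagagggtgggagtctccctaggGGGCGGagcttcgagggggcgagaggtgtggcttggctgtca
Epcam: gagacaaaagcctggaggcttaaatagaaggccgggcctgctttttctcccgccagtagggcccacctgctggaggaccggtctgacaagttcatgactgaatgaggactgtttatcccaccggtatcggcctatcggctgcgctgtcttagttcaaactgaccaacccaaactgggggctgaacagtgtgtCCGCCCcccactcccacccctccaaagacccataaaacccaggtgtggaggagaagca

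Both strands of the 250 upstream bases were searched for 9 short motifs, and no matches overlapped in the printed windows. The motif of SP and KLF factors, spelled GGGCGG, was in 6 of the 9 windows (Ky, Frmd5, Wipf3, Jup, Arl5a and Epcam), against 32.7% of all 32851 windows of the same length. The box bound by the factor NFY, spelled CCAAT, was in 4 windows (Frmd5, Jup, Cyp11a1 and Arl5a), against 33.85% of all windows. The half-site of nuclear receptors, spelled AGGTCA, was in the windows of Frmd5 and Lrrn4, against 14.02% of all windows. The other 6 motifs were in none of the 9 windows. For factors of the Gata family the letters were AGATAA, present in 9.99% of all windows. For forkhead factors, the family of Foxp3, they were GTAAACA, present in 3.17% of all windows. For the AP-1 complex they were TGANTCA, present in 6.75% of all windows. For Ets family factors they were CCGGAAG, present in 6.91% of all windows. For the E-box they were CACGTG, present in 6.02% of all windows. For the box bound by the TBP protein they were TATAAA, present in 12.4% of all windows. Slco2b1 held no match to any motif searched, and a match or its lack is a description of these letters only. The Cyp11a1 window nearest to the GENCODE start of the gene still lay 8387 bases from it, so it belongs to another annotated start. The windows of the 9 genes had 56.4 to 76.0% G and C, against a median of 52.4% over all windows.

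Slco2b1, which encodes the organic anion transporter OATP2B1 (chromosome 7, 99657804 to 99711340, minus strand, mm10), showed the widest gap between Treg and Tconv of the 10. Treg KO libraries read 1514, 738, 2201 and 1997, and Treg WT libraries 1316, 314 and 1508. No read fell on it in any of the 5 Tconv KO libraries, and of the Tconv WT libraries only the second had reads, 5 of them, for a value of 11.1. Every Treg library was thus far above every Tconv library, and the lowest was Treg WT 2. Its mean of 1613 ± 650.1 in Treg KO (SD, n = 4) was at least 491-fold higher than in Tconv KO, set against a floor of 3 reads per library. Means were 1046 ± 641 in Treg WT (n = 3) and 3.54 ± 5.07 in Tconv WT (n = 4). By log2 difference it ranked 2 of the 14319 genes tested, in KO and in WT alike. Its exons overlap those of the antisense genes Gm15635 and Gm34280, and reads from them cannot be told apart if counting ignored strand.

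Cyp11a1, the cholesterol side-chain cleavage enzyme that starts steroid hormone synthesis, lies on chromosome 9 (58006411 to 58027023, plus strand) and shares exon sequence with the noncoding Gm17322 on the same strand. It read 800.2, 327, 761 and 1154 in Treg KO and 511, 1536 and 476 in Treg WT. Tconv KO libraries read 16.8, 5.68, 8.98, 69.6 and 3.67, and Tconv WT libraries 2.03, 11.1, 14.1 and 10.0. The groups did not overlap, although every Tconv library had at least 1 read. Treg WT 2, the lowest Treg library for Slco2b1, was the highest for Cyp11a1. Means were 761 ± 339 in Treg KO and 20.9 ± 27.7 in Tconv KO (n = 5), a 36.3-fold ratio, and 841 ± 602 in Treg WT and 9.32 ± 5.15 in Tconv WT, a 90.3-fold ratio that was 53.0-fold without Treg WT 2.

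Jup (chromosome 11, 100368958 to 100397763, minus strand) encodes plakoglobin, a catenin of desmosomes and adherens junctions. Treg KO libraries read 548, 396, 921 and 699, and Treg WT libraries 319, 213 and 735. Values were 1.00, 3.34, 6.07, 6.58 and 8.996 in Tconv KO and 6.17, 3.03, 11.1 and 4.38 in Tconv WT. All but 1 Tconv library had reads, yet none came near the lowest Treg value. Means of 641 ± 224 in Treg KO and 5.20 ± 3.09 in Tconv KO gave a 123-fold ratio, and means of 422 ± 276 in Treg WT and 6.16 ± 3.51 in Tconv WT a 68.6-fold ratio, which was 43.2-fold without Treg WT 3 and 114-fold without Tconv WT 1 and Tconv WT 3.

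Jcad (chromosome 18, 4634878 to 4682869, plus strand) encodes a protein of endothelial cell junctions that binds the Hippo kinase LATS2. It was even across 6 of the 7 Treg libraries, at 352, 373, 314 and 467 in Treg KO and 459 and 352 in Treg WT 1 and 3, and had no read in Treg WT 2. That library held 8.20 M reads, so it was among the deeper Treg libraries. Tconv KO libraries read 1.00, 1.00, 1.13, 1.00 and 1.89, and Tconv WT libraries 17.5, 1.00, 1.00 and 1.00. In Tconv the 17.5 came from 16 reads in the library with neutrophil transcripts, and the values above 1 in Tconv KO came from single reads. Treg and Tconv did not overlap in KO, but in WT they did because of Treg WT 2.

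Frmd5 (chromosome 2, 121545529 to 121807087, minus strand) encodes a FERM-domain protein that in human cells associates with the adherens junction through p120 catenin. Its Treg KO values of 2652, 545, 1661 and 128 spanned a wide range, whereas Treg WT libraries read 871, 1212 and 1173. Values in Tconv KO were 2.22, 7.23, 2.77, 2.60 and 58.7, and in Tconv WT 4.10, 7.09, 52.3 and 1.00. A single library in each Tconv group stood above 50, and even these were below the lowest Treg library. Means were 1246 ± 1138 in Treg KO and 14.7 ± 24.7 in Tconv KO, 84.7-fold apart, and 1085 ± 187 in Treg WT and 16.1 ± 24.3 in Tconv WT, 67.3-fold apart. Without Tconv WT 1 and Tconv WT 3 the WT ratio was 268.

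Epcam (chromosome 17, 87635979 to 87651129, plus strand), the epithelial cell adhesion molecule, did not match the description of a Treg-restricted gene. Treg KO libraries read 136, 93.2, 218 and 207, and Treg WT libraries 309, 388 and 209. In Tconv KO the values were 30.2, 34.5, 136, 66.4 and 93.4, and in Tconv WT 52.7, 5.06, 1.00 and 4.38. Treg KO and Tconv KO overlapped, with 2 Tconv KO libraries above the lowest Treg KO library, while Treg WT and Tconv WT did not. The ratio of means was 2.27 in KO (164 ± 59.3 in Treg KO, 72.1 ± 44.1 in Tconv KO) and 19.1 in WT (302 ± 89.6 in Treg WT, 15.8 ± 24.7 in Tconv WT), and 64.0 in WT without Tconv WT 1 and Tconv WT 3.

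Epithelial marker genes were mostly low in the same libraries. Of 10 listed, 7 had a row in the table, and their summed level above 1 was 4.25 to 77.1 in Treg KO, 0 to 112 in Treg WT, 5.45 to 73.7 in Tconv KO and 0 to 30.4 in Tconv WT. Cdh1 (E-cadherin) read 90.8 and the epithelial factor Elf3 22.8 in Treg WT 2, the library with the highest Epcam value, and Cdh1 read 1.00 to 8.68 in the other Treg libraries. In Tconv, Cdh1 was highest in Tconv KO 5, at 47.2. Krt18, a keratin, read 68.5, 40.9, 1.00 and 37.0 in Treg KO, 15.6, 1.00 and 1.00 in Treg WT, and had no read in Tconv. Of the 2 epithelial markers tested, Krt18 was higher in Treg in KO (limma adjusted p = 0.0217), where 4.16% of all genes were. In WT 0 passed. The part of these markers in the Epcam level was not tested. Among 7 mesothelial markers with a row, the sum was 62.3 to 80.8 in Treg KO, 32.0 to 44.7 in Treg WT, 26.5 to 49.9 in Tconv KO and 28.2 to 97.4 in Tconv WT. Endothelial marker sums were 218 to 550.0 in Treg KO and 202 to 341 in Treg WT, against 491 to 1251 in Tconv KO and 253 to 620 in Tconv WT. Pecam1, also known from T cells, made up most of these sums, averaging 256 in Treg KO, 216 in Treg WT, 669 in Tconv KO and 449 in Tconv WT, while Kdr averaged 28.9 in Treg KO and 12.3 in Tconv KO. In bulk libraries, fewer cells that carry a transcript and less of it per cell cannot be told apart.

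Wipf3 (chromosome 6, 54429603 to 54503768, plus strand) belongs to the WIP family, which binds actin and the Wiskott-Aldrich proteins that drive actin branching. Treg KO libraries read 734, 788, 1682 and 866, and Treg WT libraries 1454, 171 and 961. Values were 2.22, 1.00, 61.6, 19.3 and 7.22 in Tconv KO, and 1.00, 9.12, 1.00 and 1.00 in Tconv WT. All Tconv libraries were below the lowest Treg library, which again was Treg WT 2. Means were 1017 ± 446 in Treg KO and 18.3 ± 25.3 in Tconv KO, a 55.7-fold ratio, and 862 ± 647 in Treg WT, against 4 reads in a single library in Tconv WT. Its exons overlap those of Scrn1 and 9130019P16Rik on the other strand.

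Ky (chromosome 9, 102505750 to 102546239, plus strand) encodes the kyphoscoliosis peptidase, a skeletal muscle protein whose loss bends the spine of mice. It read 287, 356, 369 and 432 in Treg KO and 334, 209 and 482 in Treg WT, and its highest Treg library was 2.31 times its lowest, the smallest such ratio of the 10 genes. No Tconv KO library had a read, and Tconv WT 2 alone of the Tconv WT libraries had 3 reads, a value of 7.09. The mean of 361 ± 59.6 in Treg KO was at least 109.9-fold higher than in Tconv KO against the floor of 3 reads per library. Treg WT averaged 342 ± 137.

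Arl5a (chromosome 2, 52397951 to 52424901, minus strand), a small GTPase of the trans-Golgi network, was enriched in Treg but present in every Tconv library. Treg KO libraries read 2968, 2879, 3824 and 3145, and Treg WT libraries 3375, 1124 and 2846. Tconv KO libraries read 304, 484, 480.5, 229 and 234, and Tconv WT libraries 459, 573, 478 and 366. No values overlapped between the cell types, although Treg WT 2, the lowest Treg library at 1124, came far nearer to the highest Tconv value of 573 than the others did. Ratios of means were 9.25 in KO (3204 ± 428 in Treg KO, 346 ± 128 in Tconv KO) and 5.22 in WT (2448 ± 1177 in Treg WT, 469 ± 85.1 in Tconv WT).

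Lrrn4 (chromosome 2, 132868305 to 132880891, minus strand), a transmembrane protein with leucine-rich repeats that has been studied in the mouse brain, had the smallest ratio after Epcam in KO. It read 245, 282, 318 and 238 in Treg KO and 510.3, 201 and 179 in Treg WT. Tconv libraries ranged widely, at 7.08, 23.6, 117, 2.60 and 81.8 in Tconv KO and 62.0, 90.3, 12.1 and 42.7 in Tconv WT. The groups did not overlap, but the highest Tconv value of 117 was not far below the lowest Treg value of 179. Means differed 5.83-fold in KO (271 ± 37.0 in Treg KO, 46.4 ± 50.6 in Tconv KO) and 5.73-fold in WT (297 ± 185 in Treg WT, 51.8 ± 32.9 in Tconv WT).

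**Figure D1:**
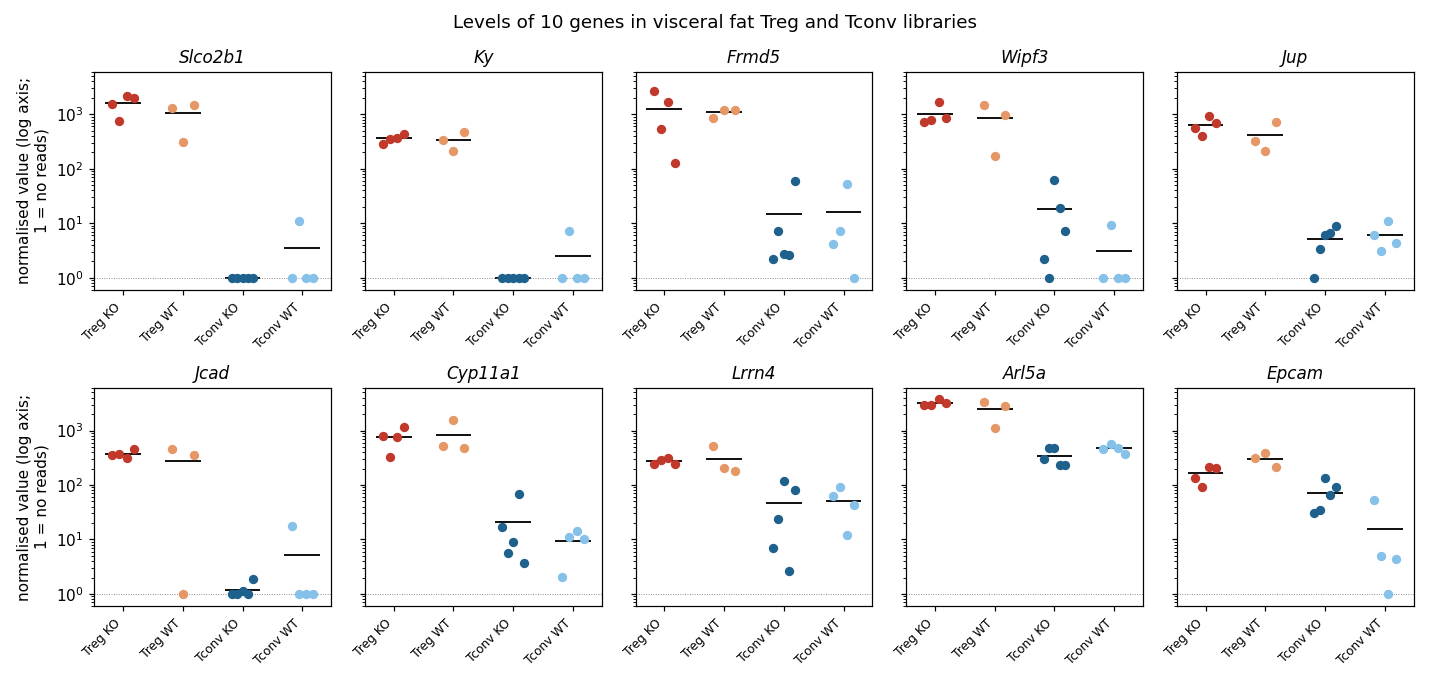
Normalised values (log axis, where 1 means no reads) of the 10 genes in each library, by group from left to right Treg KO, Treg WT, Tconv KO and Tconv WT; points are libraries and bars are group means. Slco2b1 and Ky lie at 1 in all 5 Tconv KO libraries, Arl5a lies at 229 to 573 in Tconv, and Epcam overlaps between Treg KO and Tconv KO.

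The word restricted therefore held for some of the genes and not for others. In 8 of the 10, every Treg library was above every Tconv library, where 1.77% of all tested genes showed that separation upward; since this contrast chose the genes, nothing is read from the count. Within KO 9 separated (all but Epcam; 6.0% of all genes), and within WT 9 separated (all but Jcad; 5.87% of all genes). The median log2 difference of the 10 was 6.68 in KO and 6.08 in WT, against 0.04 and 0.00 over all genes tested. Slco2b1 had the highest log2 difference of the 10 in each genotype, 9.54 in KO and 8.09 in WT, and Epcam in KO (1.31) and Arl5a in WT (2.25) the lowest.

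Levels of different genes were compared per kilobase of merged exon. In Treg KO, Arl5a was the most abundant at 592 per kilobase, followed by Slco2b1 at 270.5, Frmd5 at 165, Cyp11a1 at 158 and Wipf3 at 143. Below these came Jup at 99.4, Epcam at 74.0, Lrrn4 at 72.6, Ky at 61.2 and Jcad at 51.3. Within every Treg library, KO and WT, Arl5a was above Slco2b1. Across Treg KO libraries the ranges of Arl5a and Slco2b1 did not overlap, whereas the ranges of all other neighbours in that order did. The order in Treg WT was Arl5a at 452, Slco2b1 and Cyp11a1 at 175 each, Frmd5 at 144, Epcam at 137, Wipf3 at 121, Lrrn4 at 79.6, Jup at 65.5, Ky at 57.9 and Jcad at 36.9, with overlap between all neighbours.

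No difference between Treg KO and Treg WT passed the threshold for any of the 10 genes. All 10 reached the filter on low values, and 0 of 10 passed limma at an adjusted p under 0.05 between Treg KO and Treg WT. Of all genes tested, 0.021% passed (3 of 14319), so a count of 0 in 10 is what that background gives. None of the 10 had an unadjusted limma p under 0.05 either, where 6.22% of all genes did (890 of 14319), so that count too is near its background. Voom on the recovered reads also called 0 of the 10 after adjustment. Point estimates were positive for 7 genes and negative for 3, with a median log2 difference of 0.34 for the 10 and 0.08 for all genes.

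Arl5a had the narrowest interval, with a log2 difference of 0.53 (SE 0.34, 95% interval -0.18 to 1.24, adjusted p = 0.848 by limma). For Slco2b1 it was 0.80 (SE 0.78, interval -0.83 to 2.43), for Jup 0.73 (interval -0.77 to 2.23) and for Wipf3 0.62 (interval -1.53 to 2.78). Lrrn4 at 0.03, Cyp11a1 at -0.06 and Ky at 0.15 lay closest to no difference, but their intervals reached from -1.98 to 2.03, from -1.81 to 1.69 and from -1.35 to 1.64. Changes of several-fold in either direction therefore remain within the error of these libraries. Frmd5 stood at -0.52 (interval -2.92 to 1.87) and Epcam at -0.92 (interval -2.70 to 0.87).

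Jcad had the largest point estimate in Treg, 2.44 (SE 1.36, interval -0.39 to 5.28, limma adjusted p = 0.840), and this value came from 1 library. Without Treg WT 2 the difference was -0.11. Leaving out the same library also moved Wipf3 to -0.30, Ky to -0.17, Slco2b1 to 0.08, Jup to 0.34, Arl5a to 0.04, Lrrn4 to -0.17 and Cyp11a1 to 0.49. Without Treg WT 3, the library with 3 Hpgd reads, Slco2b1 was at 1.21, Jup at 1.23, Wipf3 at 0.94, Ky at 0.43, Jcad at 3.62, Cyp11a1 at -0.36 and Lrrn4 at -0.25, and none of the 10 passed (limma adjusted p of 0.740 or more). In no case did KO and WT Treg libraries separate without overlap for any of the 10, where 6.01% of all genes did.

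**Figure D2:**
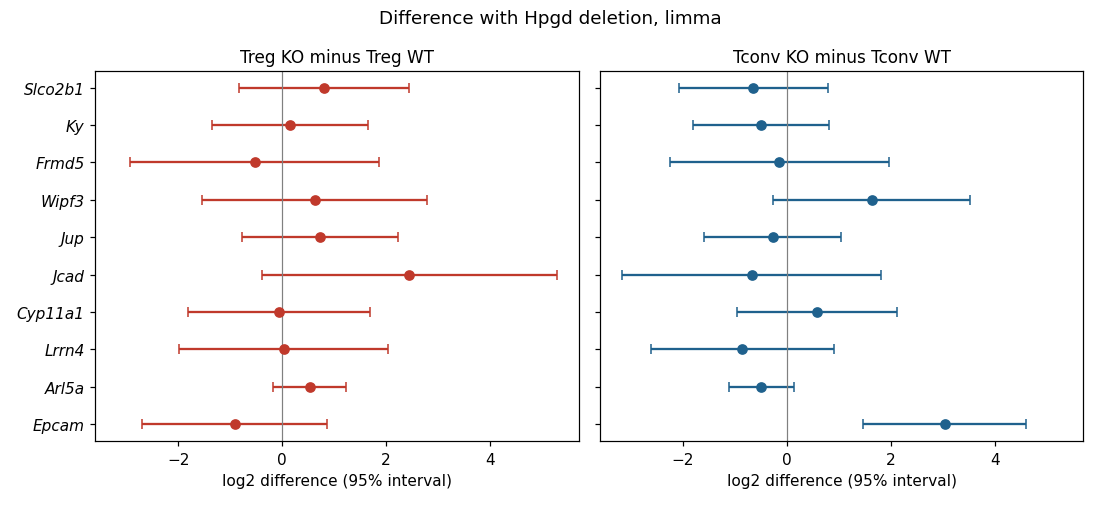
Log2 difference with 95% interval from limma for each of the 10 genes, Treg KO minus Treg WT on the left and Tconv KO minus Tconv WT on the right, with the vertical line at no difference. All 10 intervals cross 0 in Treg (Jcad is the widest, -0.39 to 5.28), and in Tconv only that of Epcam lies above 0, without passing after adjustment. Slco2b1, Ky, Jcad, Frmd5, Wipf3 and Jup met the filter only through their Treg values, so their Tconv intervals are descriptions only.

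In Tconv, whose Hpgd is not the target of the Foxp3-driven Cre, 0 of 10 genes passed between KO and WT, and 0.0% of all genes did (781 of 14319 had an unadjusted p under 0.05, and voom on the recovered reads also called none). Slco2b1, Ky, Jcad, Frmd5, Wipf3 and Jup would have missed the filter without their Treg values. Slco2b1, Ky and Jcad had no read in 8, 8 and 6 of the 9 Tconv libraries, so Tconv holds next to nothing to test for them. Frmd5, Wipf3 and Jup had reads in Tconv, but reached a value of 10 in fewer than 3 of those libraries. Nothing is therefore read from the lack of a call in Tconv for Frmd5, Wipf3 or Jup either. Epcam came nearest among the 10, with means of 72.1 ± 44.1 in Tconv KO and 15.8 ± 24.7 in Tconv WT. Its log2 difference was 3.03 (SE 0.75, interval 1.46 to 4.59), and the limma adjusted p of 0.656 did not pass, although the unadjusted one was under 0.05. Over the alternatives the adjusted p ran from 0.0708, without Tconv WT 1, to 0.963. That library, the one with neutrophil transcripts, held 52.7 against 5.06, 1.00 and 4.38 in the other Tconv WT libraries, and within Tconv KO the range was 30.2 to 136. For Wipf3 the estimate was 1.62 (interval -0.27 to 3.52), and 0.35 without Tconv WT 1, Tconv WT 3 and the deep Tconv KO 3. Of the Tconv WT libraries only Tconv WT 2 had reads of Wipf3, so this estimate is given as a description and not as a test. Arl5a differed by -0.50 (interval -1.12 to 0.13) and Lrrn4 by -0.86 (interval -2.63 to 0.90). No gene of the 10 separated KO from WT Tconv without overlap, where 1.67% of all genes did, but Slco2b1, Ky and Jcad overlap already because libraries of both groups had no reads.

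Whether deletion moved Treg and Tconv differently was tested by the difference of the effects, Treg minus Tconv. Of the 10 genes 0 passed, as did 0.0% of all genes. An unadjusted limma p under 0.05 was found for 5.22% of all genes (748) and for 2 of the 10, Epcam and Arl5a. For Slco2b1, Ky and Jcad, with almost no reads in Tconv, this difference mainly restates the Treg comparison. Frmd5, Wipf3 and Jup also met the filter only through their Treg values, so nothing is read from their lack of a call here. Epcam had the largest value, -3.94 (SE 1.14, interval -6.32 to -1.57, limma adjusted p = 0.929), since its level was lower in Treg KO than in Treg WT and higher in Tconv KO than in Tconv WT. For Arl5a the difference of effects was 1.02 (interval 0.08 to 1.97, limma adjusted p = 0.929), and without Treg WT 2 it was 0.54. Jcad gave 3.12 (interval -0.65 to 6.89), and 0.57 without Treg WT 2.

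Within Treg, 1 library set much of the variation. Treg WT 2 was the lowest of the 7 Treg libraries for 6 of the 10 genes (Slco2b1, Ky, Wipf3, Jup, Jcad and Arl5a) and the highest for Cyp11a1 and Epcam. Over all genes tested it was lowest for 18.8% and highest for 20.1%. Among the 586 other genes that were higher in Treg KO than in Tconv KO, it was lowest for 53.4%. Choosing those genes by high Treg KO values by itself makes a WT library more often the lowest. That share is therefore not a matched background for the 6 of 10. Its median deviation over the 10 genes was -0.96 on the log2 scale, against -0.16 to 0.65 for the other 6 libraries. In that library Lrrc32, a Treg surface protein that binds latent TGF-beta, read 3905, against 444 and 803 in the other Treg WT libraries, while Foxp3 read 292, against 311 and 616. The part of this library's state in the pattern was not tested.

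Treg KO 3 lay above the mean for every one of the 10 genes and was the highest library for 4. Frmd5 departed from the rest: its lowest value was in Treg KO 4, 2.75 below its Treg mean on the log2 scale, and its highest in Treg KO 1, 1.60 above. Cyp11a1 and Epcam both had their lowest value in Treg KO 2 and their highest in Treg WT 2.

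**Figure D3:**
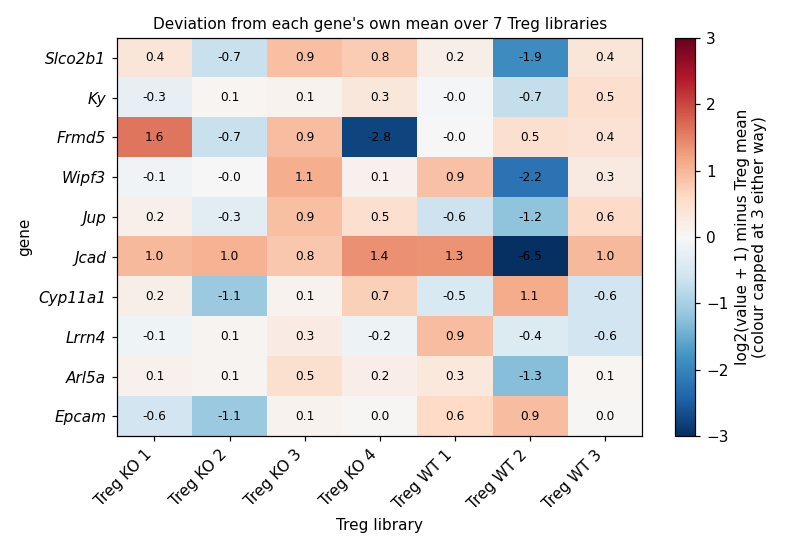
Deviation of log2(value + 1) from each gene's own mean over the 7 Treg libraries, genes in rows and libraries in columns, Treg KO left of Treg WT; red is above and blue below the mean, with the colour capped at 3. The column of Treg WT 2 is blue for 7 genes, down to -6.50 for Jcad, and red for Frmd5, Cyp11a1 and Epcam.

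Of 45 pairs among the 10 genes, none had a correlation over the 7 Treg libraries that passed adjustment in an exact 2-sided permutation test. Pearson's r ranged from -0.63 to 0.97 with a median of 0.00, and 22 pairs were positive. Wipf3 and Arl5a had the highest r, 0.97 (exact permutation p = 0.00278, adjusted p = 0.125), with Spearman's rho of 0.75 (exact permutation p = 0.0663, adjusted p = 0.661) and r of 0.75 without the 2 libraries farthest from the median of Wipf3. Slco2b1 and Jup had r of 0.88 (exact permutation p = 0.00714, adjusted p = 0.161) and rho of 0.86 (exact permutation p = 0.0238, adjusted p = 0.661), with r of 0.82 without the 2 farthest libraries. In all, 6 pairs by Pearson and 3 by Spearman had an unadjusted p under 0.05. The 7 libraries mix KO and WT, and without Treg WT 2 the highest r of any pair was 0.88.

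With the 10 themselves left out, the genes most like each over the 16 libraries were found by the root mean square of the difference between the centred log2 profiles. Ccr1, a chemokine receptor, was the nearest such gene to Slco2b1 (0.89), Ky (0.93) and Wipf3 (1.49). It averaged 945 ± 472 in Treg KO, 874 ± 770.1 in Treg WT, 1.49 ± 0.73 in Tconv KO and 11.9 ± 19.8 in Tconv WT. Cyp4f18, a leukotriene-metabolising P450 that came second to Slco2b1 (1.56), averaged 8533 ± 5036 in Treg KO and 5436 ± 2231 in Treg WT, against 7.71 ± 9.30 in Tconv KO and 1.52 ± 1.03 in Tconv WT. Ptafr, the receptor for platelet-activating factor, was nearest to Jup (0.99) and Frmd5 (1.55), and the actin-binding Ablim3 came second to Ky (1.14), Jup (1.01) and Frmd5 (1.57). Tpbgl was second to Wipf3 (1.52). Among the 10 themselves, Ky lay at 0.97 from Slco2b1, 0.96 from Jup, 1.38 from Wipf3 and 1.33 from Cyp11a1, and Jup at 1.44 from Frmd5.

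The closest profiles to Jcad were those of Pcdh19, a protocadherin (0.86), and Wwtr1 (1.06). Pcdh19 averaged 298 ± 107 in Treg KO and 285 ± 241 in Treg WT, with no read in Tconv KO and 1.78 ± 1.55 in Tconv WT. Arl5a had the tightest match of all, to the inhibitory receptor Cd200r1 (0.42). Cd200r1 averaged 1907 ± 577 in Treg KO and 1688 ± 890 in Treg WT, against 200 ± 78.2 in Tconv KO and 426 ± 136 in Tconv WT. Cyp11a1 was nearest to Cnksr3 (1.10) and Fmn1 (1.41), Lrrn4 to Plxna1 (0.98) and Tmbim1 (1.12), and Epcam to Qser1 (0.95) and Rps6ka5 (1.08). These likenesses mostly restate the Treg and Tconv gap and carry no test.

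The relatives and partners of the 10 genes were compared between Treg and Tconv in the same way. Of 150 listed genes 134 had a row and 107 were tested between Treg and Tconv. In KO 7 were higher (4.16% of all genes were) and 4 lower (2.65% of all genes). In WT 5 were higher (2.2% of all genes) and 2 lower (1.98% of all genes), and the genotypes shared 4 of the higher and 2 of the lower calls. Both higher counts, and the lower count in KO, were above what those shares of 107 genes give, and the lower count in WT was near it. The lists as a whole were not tested, so nothing is read from these counts about them.

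None of 8 tested Slco transporters passed in either genotype, and the most abundant, Slco3a1, averaged 519 ± 180.0 in Treg KO, 532 ± 107 in Treg WT, 495 ± 110 in Tconv KO and 512 ± 194 in Tconv WT. Of 14 tested steroid genes only Nr3c1, the glucocorticoid receptor, passed, in KO, with 6463 ± 1172 in Treg KO and 4178 ± 272 in Tconv KO (log2 difference 0.61, adjusted p = 0.0432 by limma). That call was lost under quantile scaling (0.29, adjusted p = 0.480 by limma), and without any of several single libraries. The other 13 steroid genes tested did not pass.

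Of 15 tested catenin, cadherin and desmosome genes, Ctnna1 (alpha-catenin) was higher in both genotypes. It averaged 1387 ± 239 in Treg KO and 259 ± 123 in Tconv KO (log2 difference 2.52, limma adjusted p = 0.000217), and 1415 ± 713 in Treg WT and 439 ± 217 in Tconv WT (1.63, adjusted p = 0.0326). The WT call did not hold without Treg WT 1 (limma adjusted p = 0.142), Treg WT 3 (0.166), Tconv WT 2 (0.103), Tconv WT 3 (0.0664) or Tconv WT 4 (0.0757). Nor did it hold with voom on the recovered reads (adjusted p = 0.108). Ctnnb1 (beta-catenin), the relative of Jup, was higher in KO (0.88, limma adjusted p = 0.0311), a call lost without any of 7 libraries, and was expressed in both cell types, at 1282 in Treg KO, 1741 in Treg WT, 711 in Tconv KO and 1045 in Tconv WT on average.

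In the 13 tested WIP and WASP genes, Wipf1 ran opposite to Wipf3. It averaged 516 ± 105 in Treg KO and 1514 ± 421 in Tconv KO (log2 difference -1.54, limma adjusted p = 0.000405), and 693 ± 308 in Treg WT and 1380 ± 166 in Tconv WT (-1.08, adjusted p = 0.0301). The WT call was lost without Treg WT 1 (limma adjusted p = 0.0870), Treg WT 3 (0.189), Tconv WT 2 (0.0799), Tconv WT 3 (0.0515) or Tconv WT 4 (0.0766). The adaptor Nck2 was higher in Treg in KO (1.55, limma adjusted p = 0.0208) and in WT (2.03, adjusted p = 0.0135). Its KO call was lost without Treg KO 1, Treg KO 3 or Tconv KO 4, and its WT call without Treg WT 1 or Treg WT 3.

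Arl5c, the relative of Arl5a, was the member of the Arl list most like it in direction. Its means were 1339 ± 282 in Treg KO and 306 ± 91.9 in Tconv KO (log2 difference 2.15, limma adjusted p = 0.00113), and 1287 ± 698 in Treg WT and 254 ± 152 in Tconv WT (2.36, adjusted p = 0.00291). Both calls stood without any single library, but with only the groups compared in the fit the WT call was lost (limma adjusted p = 0.101), as were those of Ctnna1 (0.198), Wipf1 (0.151), Nck2 (0.164) and Ezr (0.0584). Vps54, a subunit of the tether that Arl5 proteins recruit to the trans-Golgi in flies, was higher in KO (0.73, limma adjusted p = 0.0191) and in WT (1.03, adjusted p = 0.00697), and the KO call was lost without Treg KO 1 or Tconv KO 5. The other 17 tested genes of this list did not pass.

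Cd9, a tetraspanin partner of EpCAM, went the other way from Epcam. It averaged 89.0 ± 22.5 in Treg KO and 343 ± 106 in Tconv KO (log2 difference -1.91, limma adjusted p = 0.00156), and 83.4 ± 42.7 in Treg WT and 473 ± 71.1 in Tconv WT (-2.62, adjusted p = 0.000589). Both held in each leave-one-out fit. Of 14 tested FERM-domain genes, Ezr (ezrin) was higher in WT (0.87, limma adjusted p = 0.0136), which did not hold without Treg WT 3 (0.0959). Epb41 and Rdx were lower in KO, and each of these calls was lost without several single libraries and with voom on the recovered reads. In WT, Epb41 just missed the threshold (-1.09, limma adjusted p = 0.0544) and passed in 6 of 25 alternatives. Among these were the fits without Treg WT 2 (-1.34, limma adjusted p = 0.0259) and without Tconv WT 1 (-1.29, 0.0281).

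Wwtr1, which encodes the Hippo effector TAZ, was alone among 11 tested Hippo genes in passing, and only in KO. It read 140, 138, 206 and 600.4 in Treg KO and 881, 1.00 and 37.4 in Treg WT, against no read in any Tconv KO library and a single read, 2.03, in Tconv WT 1. The log2 difference was 6.79 in KO (limma adjusted p = 0.000658) and 4.20 in WT (adjusted p = 0.0788). Without Treg WT 2, which had no read of Wwtr1 and none of Jcad, the WT difference was 6.37 (limma adjusted p = 0.00118), and without Treg WT 1, which held the 881, it was 1.98 (adjusted p = 0.362). Its relative Yap1 did not pass, and neither did any of the 3 tested leucine-rich repeat neuronal relatives of Lrrn4 or any of the 7 tested partners of Ky and muscle genes.

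**Figure D4:**
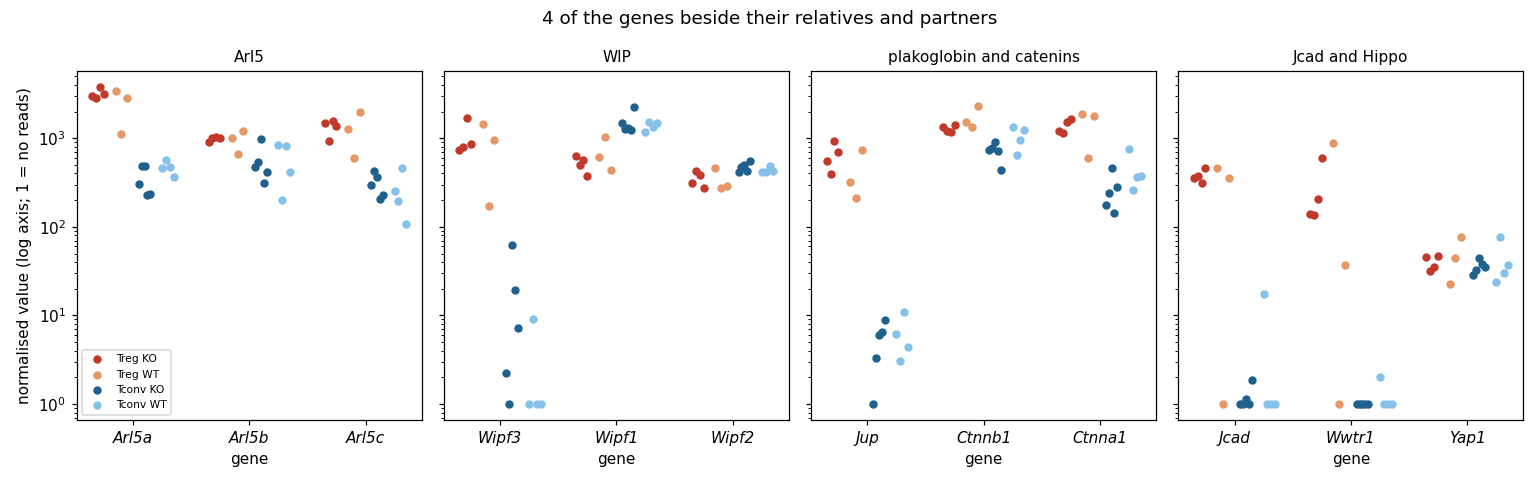
Normalised values (log axis, where 1 means no reads) per library for Arl5a, Wipf3, Jup and Jcad, each with relatives or partners in the same panel; colours give the groups, in the order Treg KO, Treg WT, Tconv KO and Tconv WT from left to right within each gene. Arl5c follows Arl5a upward in Treg, Wipf1 lies lower in Treg, Ctnnb1 is present in both cell types, and Wwtr1 is at 1 in Treg WT 2 as Jcad is.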

How the data were processed

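The deposited table holds 1 signal per gene and library: a read count over a library size factor, plus 1, as its values show. The authors' own steps are known only in part. Per the submitters' processing notes the tools were DESeq2 (version unstated), R 3.3.1, Partek 6.6, kallisto 0.44 and CASAVA 1.8, and the build mm10, with no roles given. Per the labels' protocols, cells were sorted from digested fat of perfused mice, and SmartSeq2 libraries (10 ng RNA, strand not marked) were sequenced on a NextSeq 500. The annotation used, and any use of strand, was not given in the sources used here.

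Low values move in steps, from which the value of 1 read was derived for each library; 100% of values under 1000 reads were whole within 0.1 read. Floors cover counting error only. Values were analysed as log2(value + 1), so changes of low genes are understated. The filter kept 14319 genes that reached 10 in 3 or more libraries. They were fitted with limma 3.58.1 (R 4.3.3; trended prior variance, 16 libraries, 4 groups). Tests were 2-sided, with Benjamini-Hochberg adjustment per comparison over all genes, and a pass is an adjusted p under 0.05. The script was tested on simulated data with large changes put into well-expressed genes, which does not cover small changes or genes near the floor. Pairs of genes were tested by exact permutation.

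The 10 genes, the related-gene lists and the marker lists were chosen with earlier results of these data known. Genes named besides the 10 were, per related list, up to 2 with the smallest passing p in WT and the most abundant one, the 2 nearest profiles per gene, and the most abundant markers; a few results are not reported here. Ctnnb1, Epb41, Rdx, Wwtr1, Yap1, Il2ra, Il10, Lrrc32 and Elf3 were named after their values were seen. Positions and exon lengths are from GENCODE M21 (mm10). Alternatives comprised other pseudocounts, filters, scaling, sets of libraries, a replicate block and, added after seeing the data, voom on recovered reads and a fit without 3 libraries.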

Additional observations from a re-analysis of the deposited data

Results flagged for a closer look

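A library far from the rest of its group was found in 5 of 28 groups of 4 or 5 libraries looked at (chance gives about 1 in 20 for continuous values, a rate that does not hold for groups mostly at no reads), all in Tconv and all at few reads. Reads in a single library of a group otherwise at no reads meet the criterion by themselves, as in 4 of the 5. Slco2b1 read 11.1 in Tconv WT 2 (5 reads), against 1.00 in the other 3 Tconv WT libraries. Ky read 7.09 in the same library (3 reads) and Wipf3 9.12 (4 reads), again against 1.00 in each of the others. Tconv WT 2 is the shallowest library, at 3.39 M reads, and had no read of Foxp3. Jcad read 1.89 in Tconv KO 5 from 1 read, against 1.00 to 1.13 in the other Tconv KO libraries, and 17.5 in Tconv WT 1 from 16 reads, against 1.00 in the other Tconv WT libraries. Tconv WT 1 also had 20.6 of Foxp3 and the neutrophil transcripts described above. The source of these reads was not tested.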

How the results depend on the processing

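None of the 10 genes passed in either deletion comparison or in the difference of effects under any alternative run, and no pair of genes passed. Slco2b1, Ky and Jcad have almost no Tconv reads to test, and Frmd5, Wipf3 and Jup also met the filter only through their Treg values. For these genes nothing is read from the lack of a call in Tconv or in the difference of effects. The fit of only the groups compared gives no difference of effects, which needs all 4 groups. Signs in Treg changed as single libraries were left out: Ky ranged from -0.17 to 0.43, Frmd5 from -1.13 to 0.32, Wipf3 from -0.30 to 1.24, Jcad from -0.11 to 3.81, Cyp11a1 from -0.36 to 0.49 and Lrrn4 from -0.25 to 0.50. Lrrn4 was -0.0169 with voom. Same-numbered libraries correlated only weakly in their deviations, at r from -0.02 to 0.08. Between Treg and Tconv of a genotype, r was 0.02 to 0.08 for same-numbered libraries and -0.07 to 0.05 for differently numbered ones. Whether replicate numbers pair the libraries was not settled. With the replicate block Frmd5 stood at 0.012 and the all-gene Treg count at 0. Over all genes the Treg KO count of 3 was 1 with the filter at 50, 0 with only the groups compared and 0 with voom, and 0 to 17 in the leave-one-out fits; the count for the difference of effects was 0 to 2 there. Related genes higher in Treg numbered, in WT, 1 with only the groups compared and 2 to 9 leaving out single libraries, and, in KO, 11 and 3 to 8. Those lower in WT were 4 with log2(value + 10), 1 with only the groups compared, 1 with voom and 1 to 3 in the leave-one-out fits; those lower in KO were 2 with voom and 2 to 5. The cause was not tested. Of 1022 single-gene values, 941 kept direction and side of the threshold, 62 no longer passed, 8 newly passed and 11 changed sign. The edgeR and DESeq2 fits planned on recovered reads were not run, although the reads came out whole once the added 1 was taken off, and voom on those reads was run in their place. Depth limits what can be said of genes at or under 3 reads.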
